A study of Macaca mulatta with 24 samples.

Results

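Interferon-stimulated genes are the genes that cells switch on after an interferon binds its receptor, and they were followed here in colon of rhesus macaques (Macaca mulatta) after total-body irradiation (TBI). A list of 51 such genes was looked up by gene symbol on 24 one-colour expression arrays, 1 array per animal. Of these, 39 were found by symbol and are the members described below, each represented by its probe with the highest mean over the 24 arrays. All 39 were also tested, among 13435 tested genes of the whole array. Another 6 of the 51 (SP110, EPSTI1, IRF9, TRIM25, IFI30 and SAMD9L) were listed under a numbered locus name and are given in a paragraph of their own. The remaining 6 (IFI44, IFITM2, OAS3, HERC5, HERC6 and USP18) were not matched and were not analysed here.

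Interferons are secreted when cells detect foreign or misplaced nucleic acid, and type I and type III interferons act through JAK kinases on a transcription factor complex that holds STAT2 and IRF9, whereas interferon gamma uses a receptor of its own. The induced proteins sense RNA and DNA, degrade or block viral RNA, trap or restrict virus particles, and amplify the response through factors such as IRF7. In the gut, epithelial cells, macrophages and lymphocytes can all express these genes, and damaged DNA is one known trigger of the sensors.

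The question was whether these genes changed in the colon with dose and with time. All animals were young-adult males. The control group was 4 sham-irradiated animals, labelled day 4, and the same 4 served as the reference for every day. Irradiated animals received a single whole-body dose of 6.7 Gy or 7.4 Gy of gamma rays and gave colon on day 4 (n = 4 per dose), day 7 (n = 4 per dose) or day 12 (n = 2 per dose). A protocol label gives the last time as 21 days, and the day 12 of the sample labels was followed. RNA came from a part of a colon segment about 3 cm long, extracted as whole gut tissue without a stated separation of mucosa from muscle, so fewer cells of a type and less RNA per cell cannot be told apart. Precision is set by the few animals in each group. All values are log2 of the background-corrected signal minus the 75th percentile of the array, so that 0 is the brightness of the probe at that percentile. A gene was called at an adjusted p under 0.05 (limma, Benjamini-Hochberg over 38200 probes) with at least a 2-fold change.

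The 75th percentile of the signal ranged from 550.7 to 964 intensity units over the arrays, and no probe was saturated. The colon was recognisable by its epithelial markers, with the control mean log2 signal at 5.80 for EPCAM, 6.37 for KRT20, 4.11 for CDX2 and 4.22 for MUC2. Slide position and scan day were uneven between groups. The 4 controls lay in position 1 and the 4 arrays of 7.4 Gy day 4 in position 2, with the 6.7 Gy day 4 arrays in both. Day 7 arrays lay in positions 3 and 4 and day 12 arrays in position 4. Neither of these positions held a control or day 4 array. Controls were scanned on 2 scan days, and all 4 arrays of 7.4 Gy day 4 on the second. The controls were on slides 1 to 4, and slides 5 and 6 held no control. Values with position, scan day or slide as a block stand beside the calls they change.

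On day 4 after 7.4 Gy the interferon-stimulated genes stood, as a list, above the controls in the fit without blocks. Of the 39 members, 31 had a positive log2 change, and the median over members was 0.56, against -0.02 over all 13435 genes. 6 members were called, 5 higher and 1 lower. This is 15.4% of the members, and 8.22% of all genes were called in the same comparison. The count was 11 without control replicate 1 or without 7.4 Gy day 4 replicate 2, and 2 (IFI16 and TRIM5) by the methods' t-test. With position as a block only IFI16 was called, and with position and scan day as blocks no member was. The positive median was lost in both of these fits, whose values and limits are given further below. Scaling to spike-in probes moved the median of all genes to 0.24 and that of the members to 0.83, with 12 members called, and left the distance between the medians at 0.58. At 6.7 Gy on day 4 only TRIM5 was called, 2.56% of the members against 4.25% of all genes. The median over members was 0.01 there, with 20 of 39 positive, and 2 members were called without 6.7 Gy day 4 replicate 4.

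The 4 animals of 7.4 Gy day 4 differed from one another. The median over the members, each taken relative to its control mean, was 0.27, 0.11, 1.12 and 0.67 in replicates 1 to 4. Replicate 3 had 31 members (79.5%) above the highest control and replicate 2 had 11 (28.2%), against 31% and 30.1% of all genes in the same arrays. In the controls themselves the same median lay between -0.23 and 0.30. Replicates 3 and 4 therefore lay above every control, while replicates 1 and 2 lay within the control range. Replicates 1 and 2 were on slides 3 and 4, which each held a control, and replicates 3 and 4 on slides 5 and 6, which held none. Slide and animal cannot be told apart in this split. At 6.7 Gy on day 4 the medians were -0.29, -0.33, 0.01 and 0.29, within or just below the controls. The replicate numbers only name the animals.

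**Figure D1:**
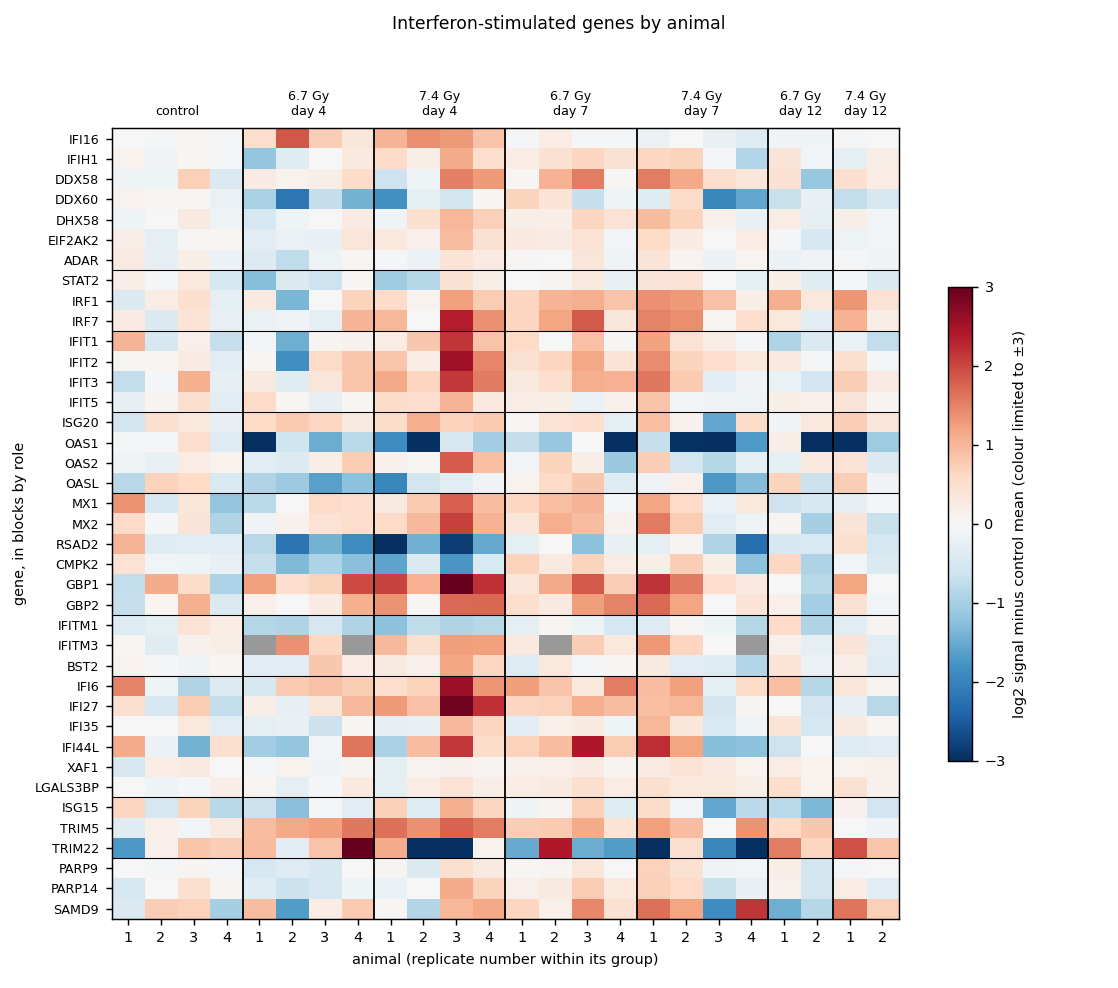
Each row is 1 of the 39 interferon-stimulated genes, in blocks by role, and each column 1 animal in its group; colour is the log2 signal minus the control mean of that gene, red above and blue below, limited to ±3, and grey is a missing spot. The column of 7.4 Gy day 4 replicate 3 is red in most rows, while RSAD2, CMPK2, IFITM1 and OAS1 are blue in every day 4 column.

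**Figure D2:**
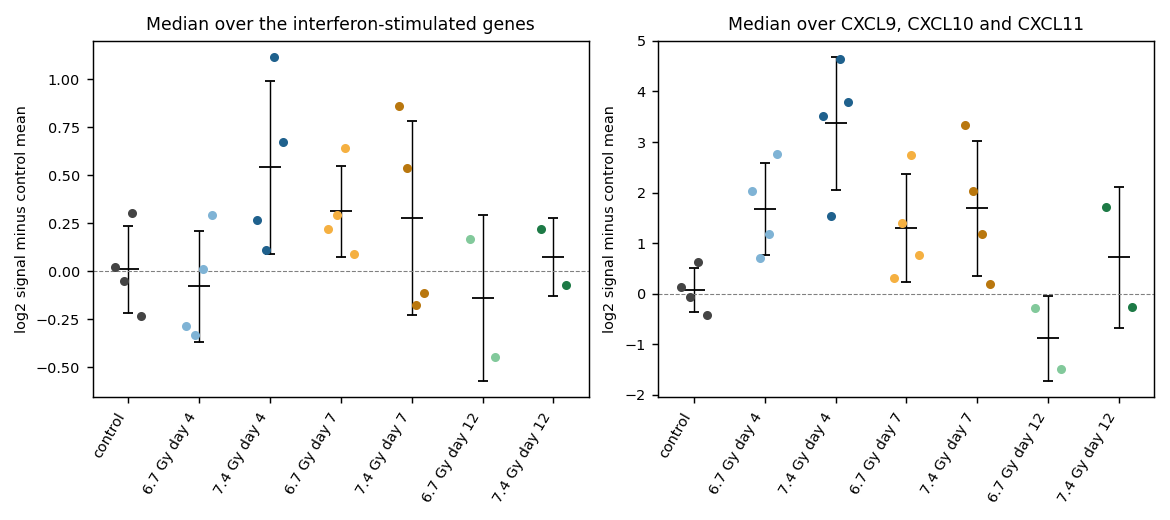
Each point is 1 animal, with the mean (horizontal mark) and SD of its group; the y axis is the log2 signal minus the control mean, as a median over the 39 interferon-stimulated genes (left) and over CXCL9, CXCL10 and CXCL11 (right). On day 4 after 7.4 Gy the 4 animals spread from 0.11 to 1.12 in the left panel, and on day 7 after 7.4 Gy from -0.18 to 0.86.

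Among the sensors of nucleic acid, IFI16, which binds DNA in the nucleus and cytoplasm, was higher at both doses on day 4. Its log2 signal was -0.02, -0.07, 0.02 and -0.09 in the controls and 0.98, 1.36, 1.24 and 0.82 at 7.4 Gy. At 6.7 Gy it was 0.49, 1.83, 0.70 and 0.30. All 8 day 4 animals lay above all 4 controls, which lay close together. The change at 7.4 Gy was 1.14 ± 0.22 (SE), or 2.20-fold (limma adjusted p = 0.00172). At 6.7 Gy it was 0.87 ± 0.22 with a limma adjusted p of 0.0199, under the 2-fold limit. A second, dimmer IFI16 probe gave 1.13 at 7.4 Gy and 0.21 at 6.7 Gy, neither called. With position as a block IFI16 was called at both doses, at 1.80 for 7.4 Gy and 1.20 for 6.7 Gy, and with position and scan day as blocks at 6.7 Gy only (1.23, against 1.90 with a limma adjusted p of 0.0578 at 7.4 Gy).

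The RNA sensors gave smaller values. At 7.4 Gy on day 4 the log2 changes were 0.61 for IFIH1 (MDA5), 0.51 for DDX58 (RIG-I), 0.51 for DHX58 (LGP2) and 0.46 for EIF2AK2 (the kinase PKR), and none was called. ADAR, an RNA-editing enzyme, was at 0.10. DDX60, a helicase, had a negative log2 change at both doses, -1.33 at 6.7 Gy and -0.64 at 7.4 Gy (limma adjusted p = 0.0791 and 0.362). Its 4 animals at 6.7 Gy all lay below the controls, and at 7.4 Gy the groups overlapped. DDX60 at 6.7 Gy was called with position (-1.58) or slide (-1.83) as a block (limma adjusted p = 0.0467 and 0.0491). At 7.4 Gy, 6 of the 7 sensors had a positive change, against 2 of 7 at 6.7 Gy.

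Of the transcription factors that relay the signal, none was called on any day. IRF7, the amplifier of type I interferon production, had a log2 change of 1.18 ± 0.45 (SE) at 7.4 Gy on day 4 (limma adjusted p = 0.0704) and of 0.11 at 6.7 Gy. IRF1, induced mainly by interferon gamma, stood at 0.67 and -0.10. STAT2 was at -0.32 and -0.57. IRF1 was also among the 3 highest members at 7.4 Gy on day 7 (0.93) and on day 12 at 6.7 Gy (0.69) and 7.4 Gy (0.89).

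The IFIT genes encode RNA-binding proteins that hold back translation of viral RNA, and all 4 had a positive log2 change at 7.4 Gy on day 4. IFIT3 was called. Its log2 signal was -3.01, -2.33, -1.21 and -2.52 in the controls and -1.14, -1.62, -0.15 and -0.72 at 7.4 Gy. The lowest animal at 7.4 Gy lay below control replicate 3, so the groups overlapped. The change was 1.36 ± 0.42 (SE), or 2.57-fold (limma adjusted p = 0.0276), and 0.27 at 6.7 Gy. Of all the called members this call was the least stable. It was lost, each time with an adjusted p between 0.0540 and 0.0923, when control replicate 1, 2 or 4 or 7.4 Gy day 4 replicate 3 or 4 was left out, and its sign turned (-0.39) with position and scan day as blocks. It was also lost with slide, scan day (1.08) or position (0.73) as a block. IFIT2 (1.27), IFIT1 (1.01) and IFIT5 (0.59) were not called.

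GBP1, a guanylate-binding GTPase strongly induced by interferon gamma, had the largest positive log2 change of the members at 7.4 Gy on day 4. Its log2 signal was -1.91, -0.05, -0.61 and -2.09 in the controls, 0.85, -0.11, 2.28 and 1.02 at 7.4 Gy, and 0.06, -0.65, -0.50 and 0.80 at 6.7 Gy. At 7.4 Gy, 3 animals lay above every control and replicate 2 lay just under control replicate 2. The change was 2.18 ± 0.55 (SE), or 4.52-fold (limma adjusted p = 0.00983), at 7.4 Gy. At 6.7 Gy it was 1.09 ± 0.55 (limma adjusted p = 0.221). With position as a block the 7.4 Gy change of GBP1 was 1.73 and no longer called (limma adjusted p = 0.253). The other GBP1 probe gave 1.51 and 0.70. Of the related GTPases, GBP2 was at 1.20, MX2 at 1.16 and MX1 at 0.94 at 7.4 Gy, none called. The dimmer GBP2 probes did not follow the brightest one, with log2 changes of -0.26 and -0.09.

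IFI27, a small hydrophobic protein of mitochondria and the nuclear envelope, was also called higher. In log2 signal it was 3.62, 2.64, 3.90 and 2.42 in the controls and 4.42, 4.02, 6.05 and 5.34 at 7.4 Gy on day 4. Every animal at 7.4 Gy lay above every control, and replicates 3 and 4 were the highest. The change was 1.81 ± 0.43 (SE), or 3.51-fold (limma adjusted p = 0.00611). The IFI27 call was lost with position as a block (1.13, limma adjusted p = 0.319), with position and scan day as blocks (0.85, limma adjusted p = 0.723) and by the methods' t-test. At 6.7 Gy the change was 0.32 (limma adjusted p = 0.684), with overlapping groups. Of the other small induced proteins, IFI6 stood at 1.28 (limma adjusted p = 0.0930), IFI35 at 0.29, LGALS3BP at 0.13 and XAF1, a proapoptotic factor, at 0.00. IFI44L was well above background on 10 of the 24 arrays only.

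**Figure D3:**
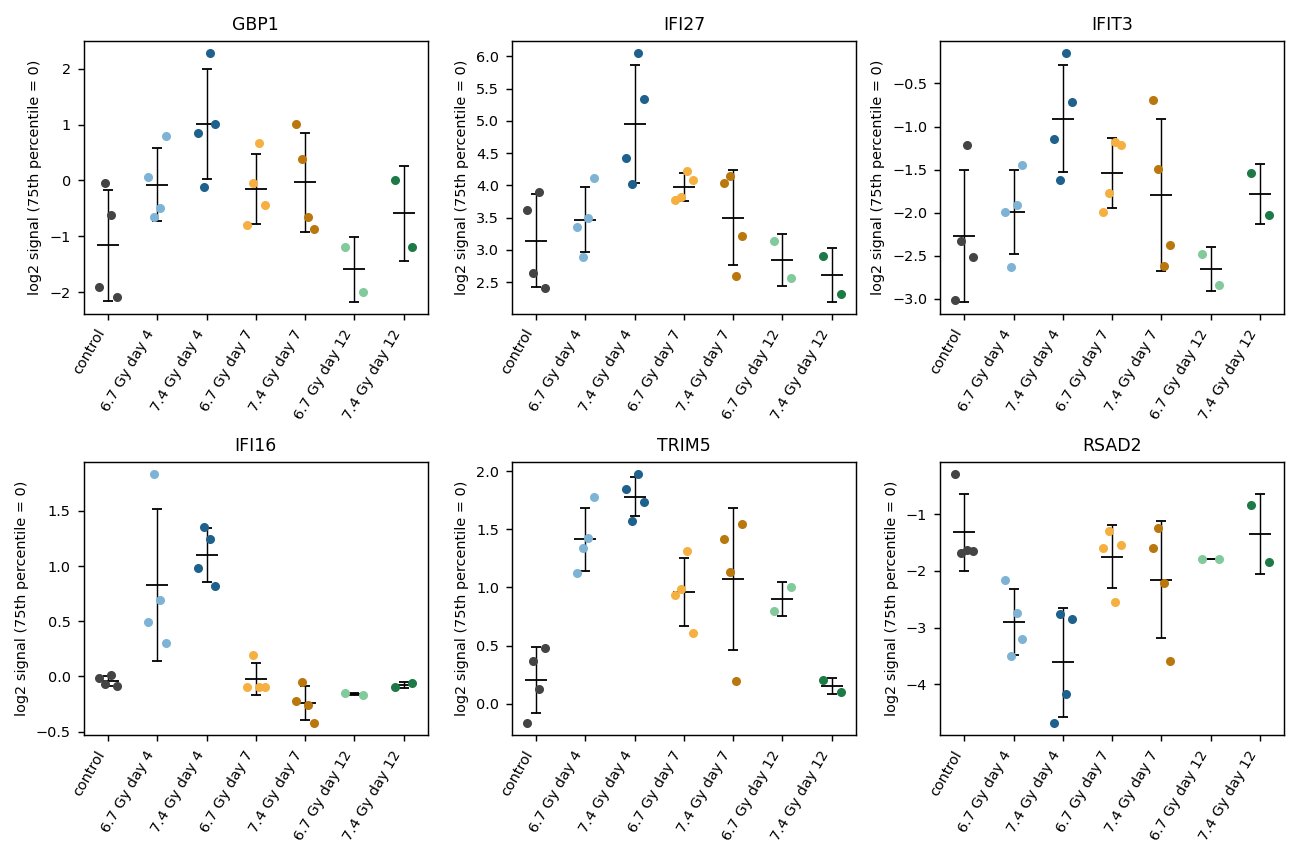
Each point is the log2 signal of 1 animal (75th percentile of the array at 0), with the mean (horizontal mark) and SD of its group, for the 6 genes called against control. IFI16, IFI27 and TRIM5 at 7.4 Gy day 4 lay above all 4 controls and RSAD2 below all 4, while GBP1 and IFIT3 overlapped with the controls; by day 12 IFI16 lay between -0.17 and -0.06.

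Among the ligases and the ubiquitin-like modifier of the list, TRIM5, which binds retroviral capsids, was the only member called at both doses on day 4. It had a log2 signal of -0.17, 0.36, 0.12 and 0.48 in the controls, 1.12, 1.34, 1.42 and 1.78 at 6.7 Gy and 1.85, 1.58, 1.97 and 1.73 at 7.4 Gy. All 8 irradiated animals lay above all controls. The changes were 1.22 ± 0.24 (SE; limma adjusted p = 0.00444) and 1.58 ± 0.24 (limma adjusted p = 0.000204), or 2.32-fold and 3.00-fold. With position as a block TRIM5 was called at 6.7 Gy (1.03) and not at 7.4 Gy (1.21, limma adjusted p = 0.0658), and with position and scan day as blocks at neither (0.98 and 1.06). This rested on 1 of 4 probes: the other 3 gave between -0.17 and 0.28 at both doses, and the mean of all 4 probes gave 0.29 and 0.50, called at neither dose. ISG15, a ubiquitin-like modifier released and conjugated during the response, stood at 0.51 at 7.4 Gy and -0.57 at 6.7 Gy (limma adjusted p = 0.441 and 0.443).

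TRIM22, the gene next to TRIM5 in the RefSeq gene order of the T2T-MMU8v2.0 assembly, showed the opposite disagreement. Its brightest probe had the widest within-group spread of all members (pooled SD 1.81) and gave 1.22 at 6.7 Gy and -1.42 at 7.4 Gy, neither called. Its other 2 probes gave 1.72 and 1.50 at 7.4 Gy, both called, with limma adjusted p of 5.39e-05 and 0.00022. At 6.7 Gy they gave 1.07, called (limma adjusted p = 0.00623), and 0.77. These probes were looked at after the values of the brightest were known. The same holds for IFITM3, which blocks entry of virus at membranes. The brightest IFITM3 probe gave 0.99 ± 0.28 (SE) at 7.4 Gy (limma adjusted p = 0.0216), just under 2-fold, and lacked a value on 4 arrays, 2 of them at 6.7 Gy day 4. Its other 3 probes gave 1.09, 1.41 and 1.83 at 7.4 Gy, all called. At 6.7 Gy the same 3 gave 0.72, 1.24 and 1.35, of which the last 2 were called (limma adjusted p = 0.0222 and 0.0239). With position as a block the brightest probe was called at 6.7 Gy (1.37, limma adjusted p = 0.0409) and stood at 1.74 at 7.4 Gy (limma adjusted p = 0.0553). IFITM genes are near copies of one another, so a probe may take signal from more than 1 of them.

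Several members went the other way. RSAD2, which encodes viperin, an enzyme that makes a chain-terminating nucleotide, was the only member called lower. The log2 signal of RSAD2 was -0.30, -1.69, -1.64 and -1.64 in the controls, -2.15, -3.50, -2.74 and -3.20 at 6.7 Gy and -4.68, -2.76, -4.18 and -2.84 at 7.4 Gy on day 4. All 8 irradiated animals lay below all 4 controls, although control replicate 1 was far above the other controls. The change was -2.30 ± 0.51 (SE) at 7.4 Gy, or 4.92-fold lower (limma adjusted p = 0.0039). At 6.7 Gy it was -1.58 ± 0.51 (limma adjusted p = 0.0534). The call at 7.4 Gy held without control replicate 1 and was lost with position as a block (-2.15, limma adjusted p = 0.107), with position and scan day as blocks (-1.22, limma adjusted p = 0.641) and by the methods' t-test. At 6.7 Gy RSAD2 was called with slide as a block (-1.99, limma adjusted p = 0.0444).

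CMPK2, a nucleotide kinase that supplies the substrate of viperin and whose gene lies next to RSAD2 in the RefSeq order, had log2 changes of -1.05 at both doses on day 4 (limma adjusted p = 0.0881 at 6.7 Gy and 0.0593 at 7.4 Gy). Its 8 day 4 animals lay between -1.67 and -0.35, all below the lowest control at -0.16. IFITM1 was likewise below all controls in all 8 animals, with -0.93 at 7.4 Gy (limma adjusted p = 0.0183, under 2-fold) and -0.79 at 6.7 Gy. OASL, an OAS-like protein that assists RIG-I, was at -1.22 at 6.7 Gy and -0.74 at 7.4 Gy, neither called. With slide as a block OASL was called at 6.7 Gy (-1.72, limma adjusted p = 0.0359). Of the 39 members, 11 did not overlap with the controls at 7.4 Gy, 7 above and 4 below (RSAD2, CMPK2, IFITM1 and OAS1). This is close to the 26% of all genes whose groups did not overlap in that comparison. At 6.7 Gy the count was 9, with 3 above and 6 below, and 17.7% of all genes did not overlap there.

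**Figure D4:**
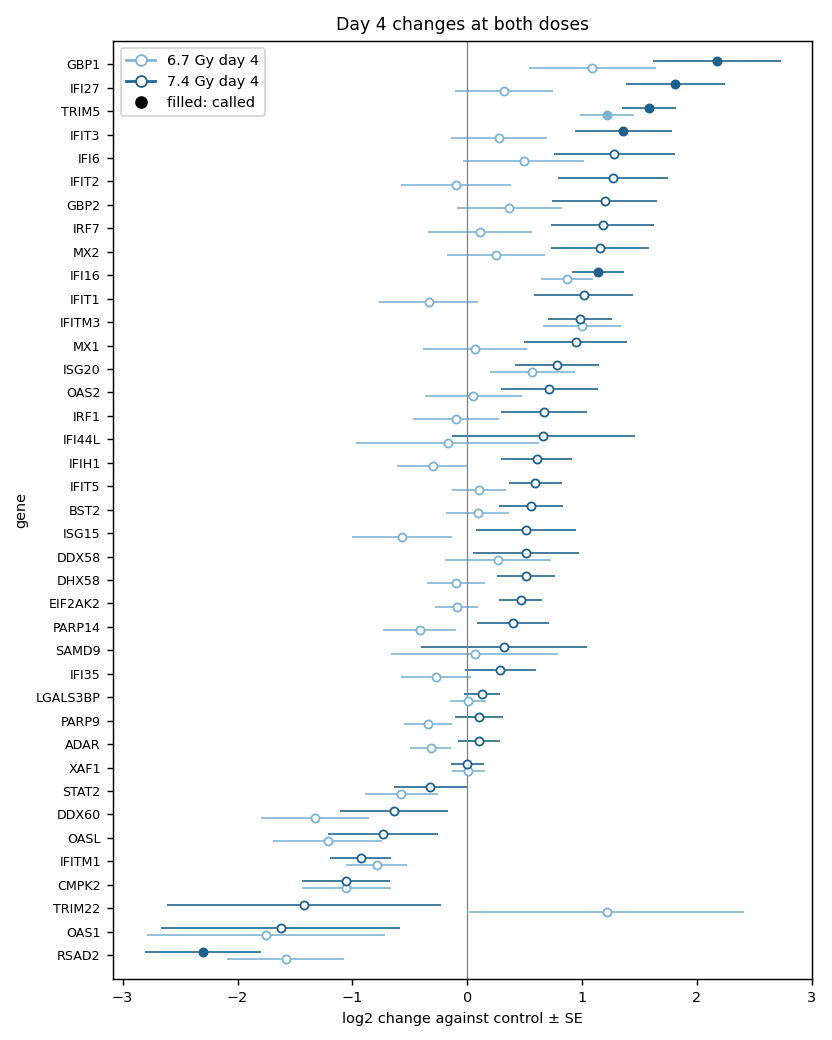
The x axis is the log2 change against control with its SE, and the y axis lists the 39 members by their change at 7.4 Gy on day 4; pale points are 6.7 Gy and dark points 7.4 Gy, and filled points were called. Dark points lie right of 0 for 31 genes, from 0.00 at XAF1 to 2.18 at GBP1, and RSAD2 lies lowest at -2.30.

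No member was called between the doses on day 4 (0% of all genes were called in that comparison as well). The median difference, 7.4 minus 6.7 Gy, was 0.56 over the members and -0.01 over all genes, with 33 of 39 positive. In limma, 15 members (38.5%) had an unadjusted p under 0.05, against 7.46% of all genes. Of the 15, 14 were higher at 7.4 Gy, and the smallest adjusted p was 0.502 for IFI27 (1.49). The IFIT genes were among these, with IFIT2 at 1.37, IFIT1 at 1.35 and IFIT3 at 1.09. No named gene of the array was called there. Within position 2, where all the 7.4 Gy day 4 arrays and 2 of the 6.7 Gy day 4 arrays lie, the median difference was 0.38, with 32 of 39 positive and none called. Those 2 arrays of 6.7 Gy were scanned on the first scan day and all the 7.4 Gy arrays on the second. Dose and scan day therefore cannot be told apart within position 2.

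Position on the slide could not be separated from dose in the 7.4 Gy day 4 results against control. With position as a block the median over members at 7.4 Gy against control was 0.00 and 1 member (IFI16) was called. With position and scan day as blocks 0 were called and the median was -0.28. The controls and the 7.4 Gy day 4 arrays share no position, so these fits compare them only through the 6.7 Gy day 4 arrays. Within scan day 2, which holds 2 of the controls, 6 members were called, with IFITM1 in place of IFIT3.

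On day 7 no member was called at 6.7 Gy (0.387% of all genes) or at 7.4 Gy (0.499% of all genes). Without 7.4 Gy day 7 replicate 3, 1 was called at 7.4 Gy. At an unadjusted limma p under 0.05 there were 3 members (7.69%) at 6.7 Gy, against 10.6% of all genes, and 4 (10.3%) at 7.4 Gy, against 12.7%. Most members had a positive log2 change, 32 of 39 at 6.7 Gy (median 0.36) and 28 of 39 at 7.4 Gy (median 0.24). GBP1 was among the 3 highest in both, at 1.01 and 1.13, and IFI44L (1.20) and IRF7 (1.0 ± 0.45, SE) at 6.7 Gy. IFI44L was well above background on 3 of the 4 arrays of 6.7 Gy day 7 and on 1 of the 4 controls. DDX58 (0.89) and IRF1 (0.93) were among the highest at 7.4 Gy. TRIM5 was at 0.76 and 0.87.

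The 4 animals of 7.4 Gy day 7 fell into pairs. Their medians over the members were 0.86, 0.54, -0.18 and -0.11. Replicates 1 and 2 had 27 and 23 members above the highest control, and replicates 3 and 4 had 4 and 6, while the share of all genes lay between 19.2% and 26.2% in these arrays. Replicates 1 and 2 lay in position 3 of slides 5 and 6 and were scanned on the second scan day. Replicates 3 and 4 lay in position 4 of slides 1 and 2 and were scanned on the first. The 2 pairs thus differ in slide, position and scan day as well, and these cannot be told apart from the animals. Within scan day 2 the median over members was 0.63 and within scan day 1 it was -0.19. At 6.7 Gy on day 7 the 4 medians were 0.22, 0.29, 0.64 and 0.09. Between the doses on day 7 no member and no gene was called (0% of all genes). 1 member had an unadjusted limma p under 0.05, against 1.79% of all genes.

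On day 12, with 2 animals per dose, no member was called at 6.7 Gy (0.0149% of all genes) or at 7.4 Gy (0.0149% of all genes). At an unadjusted limma p under 0.05 there was 1 member at 6.7 Gy, against 7.65% of all genes, and 0 at 7.4 Gy, against 7.1%. The medians were -0.14 and -0.02, with 13 and 18 of 39 positive. Under spike-in scaling these medians were 0.08 and 0.27, against 0.29 and 0.28 over all genes. The 2 animals of 6.7 Gy day 12 were at 0.17 and -0.44, and those of 7.4 Gy day 12 at 0.22 and -0.07. ISG15 (-1.07) and SAMD9 (-1.15) were among the lowest at 6.7 Gy, and SAMD9, an antiviral factor that stops translation, was among the highest at 7.4 Gy (1.17). These opposite values of SAMD9 were not called, and its pooled SD was 1.10. IFI27 was among the lowest at 7.4 Gy, at -0.53. Between the doses no member and no gene was called (0% of all genes), and 2 members had an unadjusted limma p under 0.05, against 3.57% of all genes.

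The comparison between days, over both doses, used no control. No day 7 or day 12 array shared a slide position with a day 4 array. Position therefore cannot be told apart from day in the comparisons with day 4. From day 4 to day 7, 3 members were called, 7.69% of the members against 5.04% of all genes. IFI16 fell by 1.10 on the log2 scale (limma adjusted p = 0.000106), and its 8 day 7 animals lay between -0.42 and 0.19, all below the lowest day 4 animal at 0.30. RSAD2 rose by 1.30 (limma adjusted p = 0.0119) and CMPK2 by 1.27 (limma adjusted p = 0.00233), each with overlapping groups and with 7 of 8 day 7 animals above the day 4 mean. The IFI16 change dropped under 2-fold without 6.7 Gy day 4 replicate 2 (-0.93) and as the mean of its probes (-0.89), and that of RSAD2 with normexp background correction (0.92). RSAD2 and CMPK2, neighbours on the chromosome, were thus lowest on day 4 and higher on day 7.

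From day 4 to day 12, 6 members were called, 15.4% of the members against 7.63% of all genes, and 5 of the 6 were lower on day 12. GBP1 fell by 1.56 (limma adjusted p = 0.0232), IFI27 by 1.48 (limma adjusted p = 0.00708), IFI16 by 1.08 (limma adjusted p = 0.00064), TRIM5 by 1.07 (limma adjusted p = 0.00104) and IFITM3 by 1.01 (limma adjusted p = 0.0111). RSAD2 rose by 1.69 (limma adjusted p = 0.00903). These contrasts share the day 4 arrays with the comparisons against control, so they are no separate evidence. Here, too, day and slide position cannot be told apart. The IFITM3 call was lost without 6.7 Gy day 4 replicate 2, 7.4 Gy day 4 replicate 3 or 4, 6.7 Gy day 12 replicate 2 or 7.4 Gy day 12 replicate 2. The GBP1 call was lost without 6.7 Gy day 12 replicate 2 (-1.35) or 7.4 Gy day 12 replicate 2 (-1.26) and, with the replicate number as a block, stood at -1.52 (adjusted p = 0.0505). IFI16 without 6.7 Gy day 4 replicate 2 stood at -0.92, under 2-fold, and RSAD2 without 7.4 Gy day 12 replicate 1 at 1.44 (limma adjusted p = 0.0576). The TRIM5 change was -0.15 (limma adjusted p = 0.362) as the mean of its 4 probes and -0.98, under 2-fold, within scan day 2. By the methods' t-test the GBP1 and IFI27 calls were lost. From day 7 to day 12 no member was called (0.134% of all genes), 9 (23.1%) had an unadjusted limma p under 0.05, against 10.1% of all genes, and 30 of 39 had a negative change (median -0.35).

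OAS1, an enzyme that makes the 2-5A messenger which activates RNase L, was among the 3 lowest members in all 6 comparisons with control and was called in none. Its log2 signal was 3.82, 3.83, 4.40 and 3.49 in the controls. On day 4 it was -0.22, 3.29, 2.39 and 3.07 at 6.7 Gy and 2.01, 0.79, 3.41 and 2.85 at 7.4 Gy. On day 7 it was 3.17, 2.76, 3.90 and -0.35 at 6.7 Gy and 3.19, 0.91, -0.36 and 2.19 at 7.4 Gy. On day 12 it was 4.08 and -0.23 at 6.7 Gy and 0.42 and 2.82 at 7.4 Gy. Every group of irradiated animals thus held at least 1 animal at or under 0.79, far below the controls. All 8 day 4 animals lay below the lowest control at 3.49, as did all animals of 7.4 Gy day 7 and 7.4 Gy day 12. Of all genes, 8.65% lay wholly below the controls at 6.7 Gy on day 4 and 12.6% at 7.4 Gy. The shares were 2.98% at 7.4 Gy on day 7 and 8.37% at 7.4 Gy on day 12. The changes ranged from -1.52 to -2.41 with a pooled SD of 1.57, and a second OAS1 probe gave -1.81 and -1.60 on day 4. Genotype of the animals was not analysed here.

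**Figure D5:**
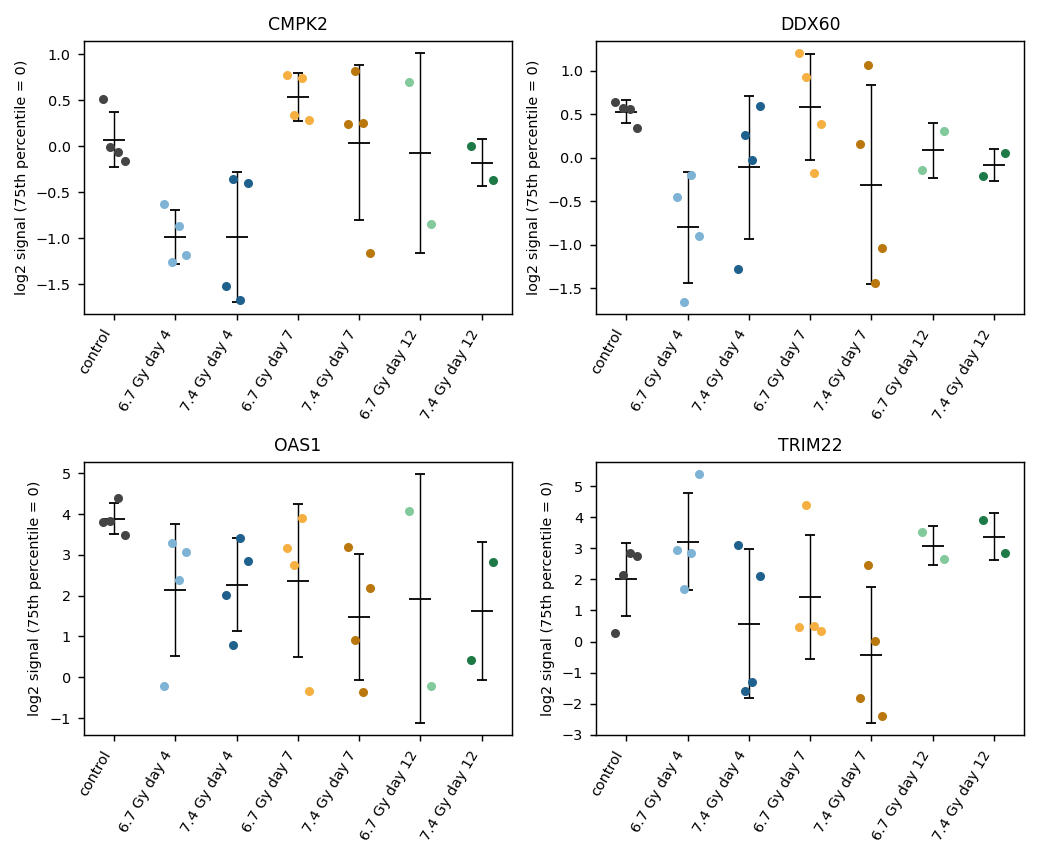
Each point is the log2 signal of 1 animal (75th percentile of the array at 0), with the mean (horizontal mark) and SD of its group, for CMPK2, DDX60, OAS1 and TRIM22. CMPK2 lay below all controls in the 8 day 4 animals, and OAS1 lay below 0 in 1 animal each of 4 irradiated groups while the 4 controls lay between 3.49 and 4.40.

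The members differed widely in how much they varied between animals of a group. The median pooled SD was 0.62 over the 39 members and 0.32 over all 13435 genes, and the median log2 signal was 0.25 and -1.15. TRIM22 (1.81), OAS1 (1.57) and IFI44L (1.21) varied most. ADAR (0.25), LGALS3BP (0.21) and XAF1 (0.18) varied least, and their log2 changes on day 4 ranged from -0.32 to 0.13. Of the others, BST2 (tetherin, which holds budding virus at the membrane), ISG20 (an RNA exonuclease), OAS2, PARP9 and PARP14 had log2 changes between 0.10 and 0.78 at 7.4 Gy on day 4, and none was called. A second, dimmer BST2 probe gave 1.26 there and was called (limma adjusted p = 0.00959).

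The 6 genes listed under a numbered locus name, taken by the brightest probe with that name, were not called in any comparison with control. At 7.4 Gy on day 4 the log2 changes were 1.33 for EPSTI1, 0.94 for IFI30, a lysosomal thiol reductase of antigen processing, 0.39 for TRIM25, the ligase that activates RIG-I, 0.24 for SAMD9L, 0.16 for IRF9 and 0.06 for SP110. At 6.7 Gy they were 0.60, 0.74, 0.00, -0.18, -0.07 and -0.60.

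Of 47 further genes of the interferon pathway, 34 were tested. At 7.4 Gy on day 4, 2 of the 34 (5.88%, against 8.22% of all genes) were called, both higher and both chemokines induced by interferon gamma that attract T cells. CXCL10 was -0.79, -1.31, -0.75 and -2.14 in the controls and 2.43, 0.29, 3.39 and 1.58 at 7.4 Gy, a change of 3.17 ± 0.69 (SE; limma adjusted p = 0.00364). CXCL11 was -4.37, -4.83, -3.88 and -4.92 in the controls and -0.99, -2.75, 0.60 and -0.71 at 7.4 Gy, a change of 3.54 ± 0.66 (limma adjusted p = 0.00115). In all 4 animals both lay above every control at 7.4 Gy, with replicate 3 highest and replicate 2 lowest, as in the median over the interferon-stimulated genes. Of all genes, 13.4% lay wholly above the controls in that comparison. At 6.7 Gy on day 4 CXCL10 was 0.79, -0.53, -0.37 and 0.77, and CXCL11 was -2.38, -3.22, -3.09 and -1.73. Both thus lay above every control at 6.7 Gy too, as did 9.04% of all genes, and neither was called there. The controls and the 7.4 Gy day 4 arrays share no slide position, and no value with position as a block is given for the chemokines. CXCL9 was at 2.84 ± 1.12 (limma adjusted p = 0.0786). The same 3 chemokines were the highest in replicates 1 and 2 of 7.4 Gy day 7, where their median relative to control was 3.34 and 2.04 against 1.19 and 0.19 in replicates 3 and 4.

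Of the ligands, 4 of 11 were tested and none was called. IFNG, the gene of interferon gamma, was at 1.78 ± 0.88 (SE) at 7.4 Gy on day 4 (limma adjusted p = 0.163). IFNB1 was well above background on 1 array, IFNA2 on 8 and IFNL1 on 16. None of the receptors, kinases, inhibitors or other factors was called in a comparison with control. SOCS1, an inhibitor induced by the pathway, was at 0.82 (limma adjusted p = 0.0362) at 7.4 Gy and TMEM173, the DNA-response adaptor STING, at 0.77 (limma adjusted p = 0.0346), both under 2-fold. From day 4 to day 12, 3 of the 34 (8.82%, against 7.63% of all genes) were called lower, CXCL10 (-2.52), CXCL11 (-2.28) and TMEM173 (-1.07).

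Markers of other cell types moved with the day 4 groups, and their part in the results was not tested. All 9 tested markers of colon epithelium were detected, and their summed level, in units of the array's 75th percentile, was between 384 and 432 in the controls, 192 and 338 at 6.7 Gy and 220 and 314 at 7.4 Gy. For 6 of 8 listed macrophage and monocyte markers the sum was between 65.9 and 99.6 in the controls, 83.4 and 120 at 6.7 Gy and 107 and 141 at 7.4 Gy. Most of it came from C1QA and C1QC, and none of the 6 was called at either dose. For 4 of 8 neutrophil markers it was between 0.686 and 0.864 in the controls, 0.747 and 4.28 at 6.7 Gy and 0.97 and 10.5 at 7.4 Gy. These 4 did not move together at 7.4 Gy: S100A8 (3.61) and S100A9 (2.23), which other cells can also express, were called higher, while the receptors CSF3R (-0.42) and CXCR1 (-0.45) had negative log2 changes and were not called. The epithelial sum did not overlap with the controls at either dose, and KRT19 was its brightest marker. For single genes, 17.7% of all genes did not overlap with the controls at 6.7 Gy and 26% at 7.4 Gy. Of the 9 epithelial markers, 2 were called lower at 6.7 Gy and 3 at 7.4 Gy, and none higher. Of all genes, 1.89% were called lower at 6.7 Gy and 3.98% at 7.4 Gy. The sum over 8 of 9 T and NK cell markers was between 35.6 and 49.1 in the controls, 30.3 and 40.7 at 6.7 Gy and 28.0 and 33.4 at 7.4 Gy. Most of this sum came from NKG7, at a log2 signal between 4.54 and 5.46 in the controls. None of the 8 was called at either dose. At 7.4 Gy, 2 of 6 fibroblast and 1 of 5 endothelial markers were called higher, against 4.24% of all genes, and none at 6.7 Gy. Of 4 red blood cell markers, 2 were called lower at 6.7 Gy and 1 at 7.4 Gy. No marker of B cells, plasmacytoid dendritic cells or smooth muscle was called at either dose.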

How the data were processed

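The series holds 24 one-colour (Cy3) arrays of rhesus colon RNA, 1 per animal. Per the file headers, the authors extracted each intensity with Feature Extraction 11.0.1.1, which subtracts background, on a layout built on rheMac2. Of 2 tables the authors deposited for the series, the raw one repeats the scanner intensities, and the normalized one holds log2 values that differ from the processed signal only by 1 constant per array and 1 per probe.

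Outlier spots were set to missing, control spots were left out, and log2 of the processed signal minus the 75th percentile of the array was tested. Only probes flagged well above background on 2 or more of the 24 arrays were kept, and 38200 were fitted. Symbols came from the authors' tables, and a numbered locus name was looked up in a RefSeq gene table (T2T-MMU8v2.0), used for names and gene order only. The members and lists were chosen with earlier results of these data known. The brightest probe stood for a gene.

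One mean per group over all 24 arrays was fitted in limma 3.58.1 (R 4.3.3; lmFit, contrasts.fit, eBayes; two-sided, Benjamini-Hochberg), in 12 comparisons. The fit was checked on simulated data. Members named with values are those called against control, the 3 highest and 3 lowest in each of the 6 comparisons with control and the 3 most and 3 least variable; others were named after their values were seen. Percentages of all genes called were counted over 13435 named genes.

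Alternatives were normexp background correction with an offset of 50, quantile normalization, spike-in scaling (6 probes), the authors' normalized table, no filter or a filter at 6 arrays, the mean of a gene's probes, the methods' t-test, slide, position, scan day and replicate number as blocks, fits within a scan day, and each array left out. Fits within a position were added after the data had been seen. Markers were 9 of 10 listed for colon epithelium, 8 of 9 for T and NK cells, 4 of 5 for B cells, 6 of 8 for macrophages, 4 of 8 for neutrophils, 2 of 5 for plasmacytoid dendritic cells, 5 of 6 for endothelium, 6 of 6 for fibroblasts, 3 of 5 for smooth muscle and 4 of 6 for red blood cells. At 7.4 Gy on day 4 their median log2 changes were -0.77, -0.32, -0.83, 0.62, 0.90, -0.53, 0.51, 0.89, -0.09 and -1.19 in that order.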

Additional observations from a re-analysis of the deposited data

Results flagged for a closer look

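In 2 of 35 tests a single animal stood apart from the other 3 of its group (Dixon's test), close to the 1 in 20 that chance gives. The log2 signal of RSAD2 was -0.30 in control replicate 1, while the other controls lay between -1.69 and -1.64. The log2 signal of IFI16 was 0.19 in 6.7 Gy day 7 replicate 2, while the others lay between -0.10 and -0.09.

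The change against the shared controls differed between days, over both doses, for 3 members on day 7 against day 4 and for 6 members on day 12 against day 4. The log2 difference between day 7 and day 4 was 1.27 for CMPK2, -1.10 for IFI16 and 1.30 for RSAD2. The log2 difference between day 12 and day 4 was -1.56 for GBP1, -1.08 for IFI16, -1.48 for IFI27, -1.01 for IFITM3, 1.69 for RSAD2 and -1.07 for TRIM5. These differences were tested in limma and are given with their adjusted p in the report. Day 4 arrays share no slide position with the later arrays, so day and position cannot be told apart.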

How the results depend on the processing

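Of the 12 counts of members called, those of the 3 dose comparisons, both doses on day 12 against control, 6.7 Gy on day 7 against control and day 12 against day 7 were 0 under every alternative that could be fitted. At 6.7 Gy on day 4 the count of 1 became 2 with normexp, quantile normalization or the filter at 6 arrays, 3 with spike-in scaling, 4 with slide or position as a block or within position 1, and 0 with the mean of a gene's probes or within scan day 1. At 7.4 Gy on day 4 the count of 6 became 12 with spike-in scaling, 2 by the methods' t-test, 1 with position as a block and 0 with position and scan day as blocks, where IFIT3 turned to -0.39; the cause was not tested. Within scan day 2 the count for day 7 against day 4 rose from 3 to 5. With 1 array left out at a time, the counts ranged from 1 to 2 at 6.7 Gy on day 4, from 5 to 11 at 7.4 Gy on day 4 and from 0 to 1 at 7.4 Gy on day 7. Of 208 log2 changes of called members under the other alternatives, 176 remained called, 31 were lost and 1 turned.

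Replicate numbers were not taken as pairing the animals: deviations of same-numbered arrays correlated on average between -0.12 and 0.12 over the 10 pairs of groups of 4, and in none of them was the lowest of the 4 correlations above 0.0530. Own numbers gave the best correlation for 7 of 8 arrays of control with 6.7 Gy day 7 and 6 of 8 of 6.7 Gy day 4 with 7.4 Gy day 7, and in both pairs of groups same-numbered arrays share a slide; in the other 8 pairs this held for 0 to 2 of 8. With the replicate number as a block, 7 members were called at 7.4 Gy on day 4 and 1 at 6.7 Gy. Position could not be fitted as a block for day 7 or day 12 against control or against day 4. Low signal limits IFI44L and the interferon ligands.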
